A study of Mus musculus with 6 samples.

Results

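Fatty acid oxidation genes were compared between splenic regulatory T cells (Tregs) of mice with and without DJ-1, the protein encoded by Park7. The set held 37 genes. It was chosen by name, and a gene's probe sets were those that the platform annotation assigns to that single symbol. All 37 were on the array, among 23152 genes with such probe sets. CD4+CD25high Tregs were sorted from spleens of untreated male mice aged 45 weeks, kept specific-pathogen-free. The KO group held 3 DJ-1-/- mice and the WT group 3 DJ-1+/+ littermates, with 1 Affymetrix Mouse Gene 2.0 ST array per mouse. The sources used here do not say how the knockout allele was made.

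Fatty acids are burned in steps. Acyl-CoA synthetases activate them, the carnitine shuttle carries them into mitochondria, and repeated rounds of dehydrogenation, hydration, a second dehydrogenation and thiolysis release acetyl-CoA, while electron transfer flavoprotein passes electrons to the respiratory chain. Peroxisomes run a parallel pathway on very long and branched chains, starting with an oxidase. Tregs are known to use lipid oxidation more than activated effector T cells do.

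The arrays were not equally bright. The lowest median level of tested genes was 7.62 (KO replicate 1) and the highest 7.92 (WT replicate 2), as log2(intensity + 16). This spread is not small beside the differences given below. Median intensity per array ranged from 88.6 to 100.2, and KO replicate 1 was both the dimmest and the least like the others (mean correlation 0.958, against 0.974 to 0.976 for the other 5, over tested genes). With 3 arrays a group, precision is limited by their number. Levels here are log2(intensity + 16) of the median probe set of a gene, and differences are KO minus WT on that scale, which understates changes of dim genes. Park7 fell from 9.48 ± 0.21 in WT to 5.91 ± 0.18 in KO (SD, n = 3 each; limma adjusted p = 2.06e-05). Foxp3, the defining Treg transcription factor, was bright in both groups, at 12.66 ± 0.02 in WT and 12.72 ± 0.03 in KO. Of 7 Treg markers, 6 had a negative difference and Foxp3 alone a positive one.

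No fatty acid oxidation gene passed the threshold, an adjusted p of 0.05 in limma over all 13891 tested genes. Most of them were slightly lower in KO. Of the 37 genes 35 lay above the filter on low values and were tested, and 29 of these had a negative difference and 6 a positive one. Over all tested genes 59.7% had a negative difference and 0.274% passed (0.266% lower and 0.0072% higher in KO). The median difference of the 35 was -0.17, beside -0.052 for all tested genes. Without KO replicate 1 these medians were -0.10 and -0.0085.

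At an unadjusted p of 0.05, 5 of the 35 genes differed, 14.3% beside 10.7% of all tested genes. The 4 lower ones were Eci2, Etfb, Acsl5 and Acad9, and the higher one was Acad10; 7.67% of all tested genes were lower and 2.99% higher by this measure. Leaving out 1 array moved this count of 5 to 3 (WT replicate 2 left out), 2 (KO replicate 3) or 8 (KO replicate 2), and centring each array on its median gave 3. The share of all tested genes under these settings is not given here, so these counts have no background beside them. All 3 KO values lay below all 3 WT values in 8 genes (22.9%, beside 11.3% of all tested genes), namely Eci2, Etfb, Acsl5, Acad9, Eci1, Cpt2, Hadhb and Hsd17b10. All 3 lay above in 2 genes, Acad10 and Ppard (5.71%, beside 6.1%).

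The level of all genes moved with the scaling of the arrays. Centring each array on the median of its tested genes raised every difference by 0.10, which brought the median of all tested genes from -0.052 to 0.051 and that of the 35 from -0.17 to -0.068. The number with a negative difference was then 23, or 65.7% (41.1% of all tested genes). With quantile normalization it was 25 of the 35, beside 7218 of all 13891 tested genes. With quantile normalization the medians were -0.11 for the 35 and -0.0098 for all tested genes.

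**Figure D1:**
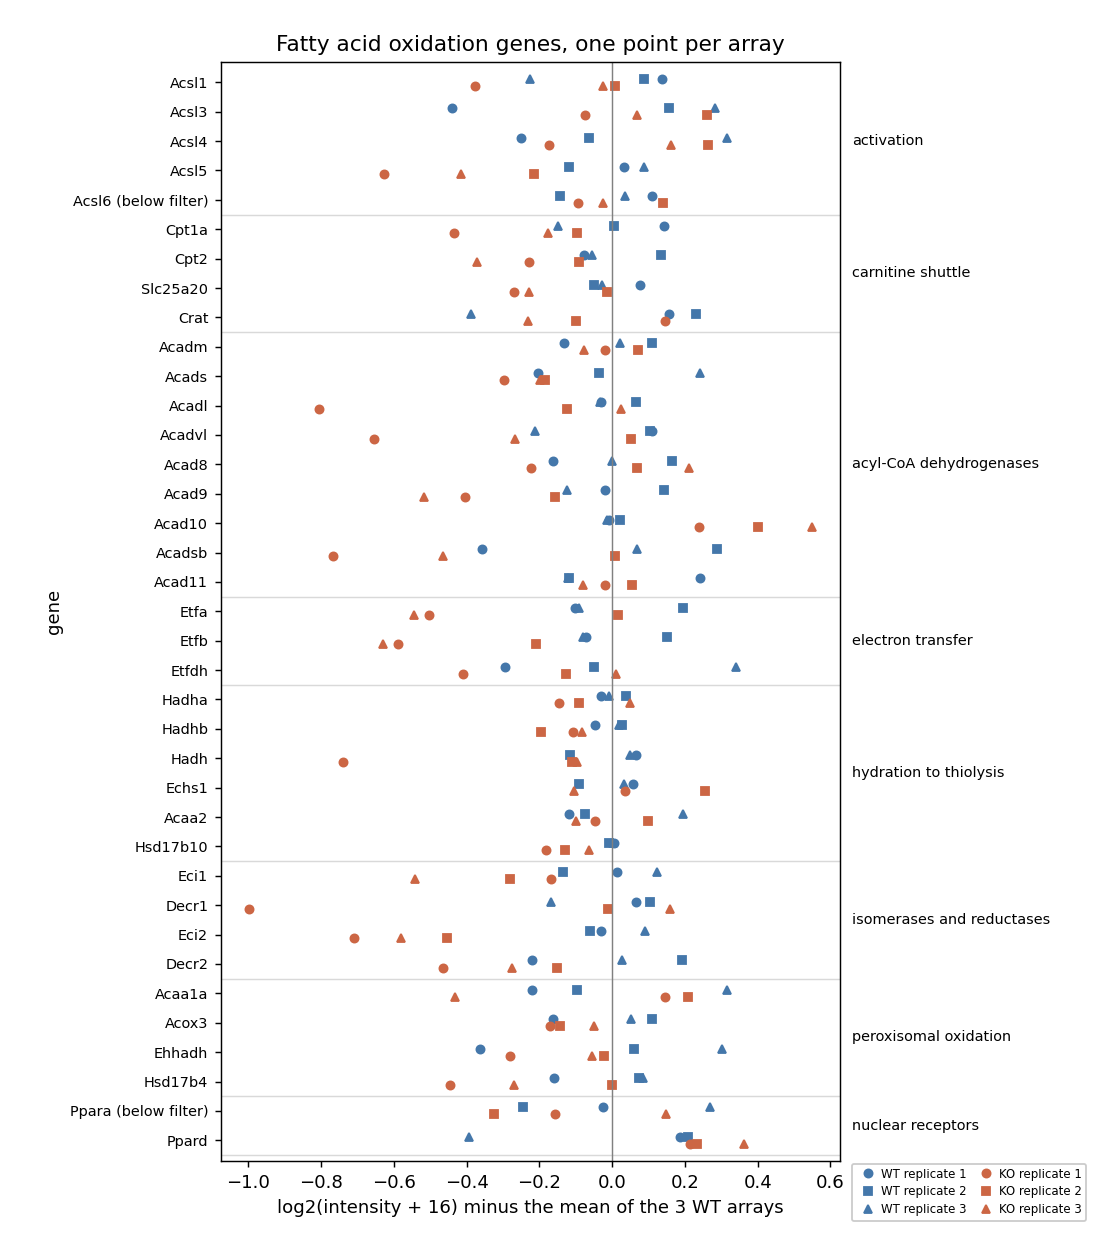
Levels of the 37 genes on each array, as log2(intensity + 16) minus the mean of the 3 WT arrays (horizontal axis), grouped by role, with blue points for WT and red points for KO. KO points of Eci2, Etfb, Acsl5 and Acad9 lie left of their WT points, those of Acad10 lie right, and KO replicate 1 (red circle) lies far left in Decr1, Acadl and Hadh.

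Eci2, Etfb and Acad10 carried the largest differences in each direction and in different steps of the pathway, and their promoters are shown for that reason. They are the 250 bases before the annotated start in RefSeq (GRCm38.p6), written 5′ to 3′ on the gene's strand, with matches to the motifs searched in capitals. The table held promoters of 32 of the 37 genes.
Eci2, chr13:34994145-34994394, minus strand: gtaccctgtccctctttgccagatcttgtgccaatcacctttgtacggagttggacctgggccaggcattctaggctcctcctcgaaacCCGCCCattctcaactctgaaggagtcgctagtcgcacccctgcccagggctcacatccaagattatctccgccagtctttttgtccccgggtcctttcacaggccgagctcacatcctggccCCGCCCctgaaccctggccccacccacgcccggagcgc
Etfb, chr7:43443822-43444071, plus strand: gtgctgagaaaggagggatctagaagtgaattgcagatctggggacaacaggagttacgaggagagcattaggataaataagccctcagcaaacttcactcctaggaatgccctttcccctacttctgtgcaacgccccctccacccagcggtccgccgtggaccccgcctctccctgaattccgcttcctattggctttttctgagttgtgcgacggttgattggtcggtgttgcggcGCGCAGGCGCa
Acad10, chr5:121660511-121660760, minus strand: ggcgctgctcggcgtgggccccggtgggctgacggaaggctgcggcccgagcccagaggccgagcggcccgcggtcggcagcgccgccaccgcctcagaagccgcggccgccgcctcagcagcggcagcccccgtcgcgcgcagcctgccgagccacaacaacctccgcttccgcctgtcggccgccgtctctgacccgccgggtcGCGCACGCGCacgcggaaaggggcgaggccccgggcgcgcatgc
The Eci2 stretch held 2 GC boxes (GGGCGG, here on the opposite strand), and the Etfb and Acad10 stretches each held 1 match to the nuclear respiratory factor 1 motif (GCGCA, any base, then GCGC). Etfb had a negative difference and Acad10 a positive one, neither past the threshold. A link between the motif and the direction of change was not tested.

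Motifs were searched on both strands from 250 bases before a start to 50 after it. Among 35 promoters of the genes, 4 held the nuclear respiratory factor 1 motif, 11.4% beside 4.6% of all 32851 promoters (Acad10, Etfb, Etfdh and Ppara). The GC box was in 82.9% beside 35.7%. The direct repeat bound by PPAR receptors (AGGTCA, any base, then AGGTCA) was in 0 of 35 and in 0.0396% of all promoters. The estrogen-related receptor motif (TCAAGGTCA), which shares the letters AGGTCA with that repeat, was in 1 promoter, of Acsl6 (0.423% of all), and the E-box (CACGTG) in 0 of 35 (7.15% of all). The stretches of 250 bases had a median GC content of 60% in these genes and 52.4% in all promoters. The shares describe these windows only.

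Activation came first in the pathway, and its 5 acyl-CoA synthetases went separate ways. Acsl5, an isoform of the endoplasmic reticulum and mitochondria that is abundant in lymphocytes and gut, was at 9.89, 9.74 and 9.95 in WT and 9.24, 9.65 and 9.45 in KO. The groups did not overlap, and the difference was -0.42 (SE 0.15, 95% interval -0.76 to -0.08, limma adjusted p = 0.362). Acsl4, which prefers arachidonic acid, was at 8.82, 9.01 and 9.38 in WT and 8.89, 9.33 and 9.23 in KO, and the groups overlapped throughout (0.084, interval -0.33 to 0.50). Acsl4 was lower in KO by the mean of its probe sets (-0.032), by its bright probe sets (-0.061), and without KO replicate 2 (-0.0062) or WT replicate 1 (-0.042).

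Acsl1, the main synthetase of fat and heart, differed by -0.13 (interval -0.50 to 0.24), and by -0.0089 without KO replicate 1. Acsl3, which acts on lipid droplets, differed by 0.085 (interval -0.36 to 0.53), with a wide spread in WT (5.81, 6.41 and 6.54). Without WT replicate 1, its lowest array, Acsl3 differed by -0.14, and without KO replicate 2 by -0.0032. Acsl6, a synthetase of brain and red cells, lay below the filter floor of 5.90 on every array, between 5.14 and 5.43, and was not tested.

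All 4 genes of the carnitine shuttle were slightly lower in KO. Cpt1a, the rate-limiting carnitine palmitoyltransferase of the outer membrane, was at 10.14, 10.00 and 9.85 in WT and 9.56, 9.90 and 9.82 in KO. KO replicate 1 was lowest and the other KO arrays lay within or next to the WT range, so the difference of -0.24 (SE 0.15, limma adjusted p = 0.621) was -0.14 without that array. Cpt2, the inner membrane partner, was at 8.72, 8.93 and 8.74 in WT and 8.57, 8.71 and 8.43 in KO. Its groups did not overlap, by a margin far smaller than the spread within either group, and the difference was -0.23 (interval -0.55 to 0.09, adjusted p = 0.610 in limma).

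Slc25a20, the carnitine-acylcarnitine exchanger, was at 8.53, 8.40 and 8.43 in WT and 8.19, 8.44 and 8.23 in KO (-0.17, interval -0.48 to 0.14). Crat, which makes acetylcarnitine in mitochondria and peroxisomes, differed by -0.062 (interval -0.49 to 0.37), with the lowest value of all 6 arrays in WT replicate 3 (6.79). The sign of Crat turned after centring (0.040) and without WT replicate 1, WT replicate 2 or KO replicate 3 (0.016 to 0.053).

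The acyl-CoA dehydrogenases, which open each mitochondrial round, were divided. Of 9 tested, 7 had a negative difference and 2 a positive one, with a median of -0.23. The classic chain-length enzymes differed little, or by less once a single array was left out. Acadm, the medium-chain enzyme, was at 8.98, 9.22 and 9.13 in WT and 9.09, 9.18 and 9.04 in KO, a difference of -0.0081 (interval -0.31 to 0.30) whose sign turned in both rescalings (0.094 after centring and 0.046 with quantile normalization). Acads, the short-chain enzyme, differed by -0.23 (interval -0.57 to 0.11) and by -0.11 without WT replicate 3, its highest array.

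Acadl, the long-chain enzyme, was at 8.71, 8.80 and 8.70 in WT and 7.93, 8.61 and 8.76 in KO. KO replicate 1 stood alone at the low end, and the difference of -0.30 (interval -0.77 to 0.16) was -0.049 without it. Acadvl, the very-long-chain enzyme of the inner membrane, showed the same array lowest, at 8.04, 8.03 and 7.72 in WT and 7.28, 7.98 and 7.66 in KO (-0.29, and -0.11 without KO replicate 1).

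Acad9, which acts on long chains and also helps to assemble respiratory complex I, was at 8.31, 8.48 and 8.21 in WT and 7.93, 8.18 and 7.82 in KO. The groups did not overlap (-0.36, SE 0.15, interval -0.70 to -0.02, adjusted p = 0.440 in limma). The mean of its 24 probe sets gave a smaller difference, -0.11, and 17 of the 24 were lower in KO.

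Acad10 differed in the other direction. It is a mitochondrial dehydrogenase with an added phosphotransferase-like part. Its 3 WT arrays were closely grouped at 6.24, 6.27 and 6.24, and the KO arrays were higher at 6.49, 6.65 and 6.80. The difference was 0.40 (SE 0.14, interval 0.09 to 0.71, adjusted p = 0.343 in limma). The gene is dim, and the value depended on which probe sets were summarised: the mean of its 15 probe sets gave 0.093 and the bright ones gave 0.048, and a pseudocount of 64 gave 0.26. Single probe sets differed by -0.34 to 0.44, 10 higher and 5 lower, and in 1 of the 15 all KO values lay above all WT values.

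The dehydrogenases of branched-chain amino acid breakdown also split. Acadsb, which acts on isoleucine products and short branched chains, was at 7.56, 8.20 and 7.98 in WT and 7.15, 7.92 and 7.45 in KO (-0.41, interval -0.92 to 0.10). Both groups spread widely and overlapped, although 12 of its 13 probe sets were lower in KO, and the difference was -0.23 without KO replicate 1. Acad8, the valine enzyme, differed by 0.019 (interval -0.34 to 0.38), and by -0.058 with the mean of probe sets and -0.077 without KO replicate 3. Acad11, which is found in peroxisomes and mitochondria, differed by -0.015 (interval -0.35 to 0.32) and turned positive after centring (0.087), with quantile normalization (0.034) and with bright probe sets (0.12).

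Electron transfer flavoprotein, which accepts the electrons of these dehydrogenases, was lower in KO in both subunits. Etfb, the beta subunit, was at 9.54, 9.76 and 9.53 in WT and 9.02, 9.41 and 8.98 in KO. All KO values lay below all WT values, with KO replicate 2 nearest to WT (-0.48, SE 0.16, interval -0.83 to -0.12, adjusted p = 0.324 in limma). Etfa, the alpha subunit, was at 8.32, 8.61 and 8.33 in WT and 7.92, 8.44 and 7.88 in KO. As in Etfb, KO replicate 2 was highest in its group, here inside the WT range (-0.34, interval -0.75 to 0.06, adjusted p = 0.557). Etfdh, the membrane oxidoreductase that passes the electrons to ubiquinone, differed by -0.18 (interval -0.60 to 0.25), by -0.059 with KO replicate 1 left out and by -0.0047 with WT replicate 3 left out.

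The hydration to thiolysis enzymes of the mitochondrial matrix differed little, with a median of -0.094. Hadha, the alpha subunit of the trifunctional protein, was at 10.23, 10.30 and 10.25 in WT and 10.11, 10.17 and 10.31 in KO (-0.062, interval -0.36 to 0.23; 0.040 after centring). Hadhb, its beta subunit with the thiolase, was at 8.66, 8.74 and 8.73 in WT and 8.60, 8.52 and 8.63 in KO. Hadhb did not overlap between groups, yet its difference of -0.13 (interval -0.42 to 0.16) was close to the shift of all genes by centring, after which it was -0.027.

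Hsd17b10, a short-chain dehydrogenase that also takes part in mitochondrial tRNA processing, showed the tightest WT values of the set, 9.63, 9.62 and 9.62, beside 9.44, 9.49 and 9.56 in KO. Its groups did not overlap (-0.13, interval -0.41 to 0.16), and the difference was -0.023 after centring and 0.015 with bright probe sets. Hadh, the medium- and short-chain hydroxyacyl-CoA dehydrogenase, was at 10.34, 10.16 and 10.32 in WT and 9.53, 10.16 and 10.18 in KO. Its difference of -0.32 came down to -0.10 without KO replicate 1, which lay apart from the other 5 arrays. Echs1, the short-chain hydratase, differed by 0.062 (interval -0.26 to 0.39), with -0.024 by the mean of probe sets and -0.035 without KO replicate 2. Acaa2, the matrix thiolase, differed by -0.016 (interval -0.34 to 0.31), and its sign turned after centring (0.086), with quantile normalization (0.033), with array weights (0.0031) and without KO replicate 1, KO replicate 3 or WT replicate 3.

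The isomerases and reductases that handle the double bonds of unsaturated fatty acids were lower in KO in all 4 genes, with a median of -0.31 (-0.21 after centring). Eci2, an enoyl-CoA isomerase of mitochondria and peroxisomes, had the lowest difference of all 35. It was at 7.76, 7.73 and 7.88 in WT and 7.08, 7.34 and 7.21 in KO. The gap between the groups was wider than the range within either group. The difference was -0.58 (SE 0.14, interval -0.89 to -0.27), a KO over WT ratio of 0.669, with an unadjusted p of 0.0019 and an adjusted p of 0.169 in limma. It lay between -0.64 and -0.52 whichever array was left out. It was -0.48 after centring, -0.48 with the mean of probe sets and -0.41 with bright probe sets. The adjusted p of Eci2 in the alternatives ran from 0.0738 with array weights to 0.518 without WT replicate 2. Of the 12 Eci2 probe sets 11 were lower in KO, and in 3 all KO values lay below all WT values.

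Eci1, the mitochondrial isomerase, was at 9.04, 8.89 and 9.15 in WT and 8.86, 8.75 and 8.49 in KO. The groups did not overlap, although the highest KO and the lowest WT value nearly touched (-0.33, interval -0.67 to 0.01, adjusted p = 0.484 in limma); the mean of its 7 probe sets gave -0.16. Decr2, the peroxisomal dienoyl-CoA reductase, was at 8.86, 9.28 and 9.11 in WT and 8.62, 8.93 and 8.81 in KO, with KO replicate 2 just inside the WT range (-0.30, interval -0.65 to 0.06, adjusted p = 0.561). All 13 of its probe sets were lower in KO, and in 7 of them all KO values lay below all WT values. Decr1, the mitochondrial reductase, was at 7.76, 7.80 and 7.52 in WT and 6.69, 7.68 and 7.85 in KO. KO replicate 1 alone was low, so the difference of -0.28 became 0.074 without it.

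The peroxisomal oxidation enzymes differed little. Hsd17b4, the bifunctional enzyme of very long and branched chains, was at 8.0, 8.23 and 8.24 in WT and 7.71, 8.16 and 7.89 in KO (-0.24, interval -0.59 to 0.12; -0.14 without KO replicate 1). Acox3, an oxidase of branched chains, was at 8.11, 8.38 and 8.32 in WT and 8.10, 8.12 and 8.22 in KO, and its difference of -0.12 (interval -0.43 to 0.19) was -0.020 after centring. Both overlapped between the groups. Ehhadh, the other bifunctional enzyme, differed by -0.12 (interval -0.53 to 0.29), and by 0.078 with the mean of probe sets and 0.032 without WT replicate 3. Acaa1a, the peroxisomal thiolase, had the fewest probe sets, 4, and differed by -0.026 (interval -0.49 to 0.44), with values from -0.47 with bright probe sets to 0.18 without KO replicate 3.

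**Figure D2:**
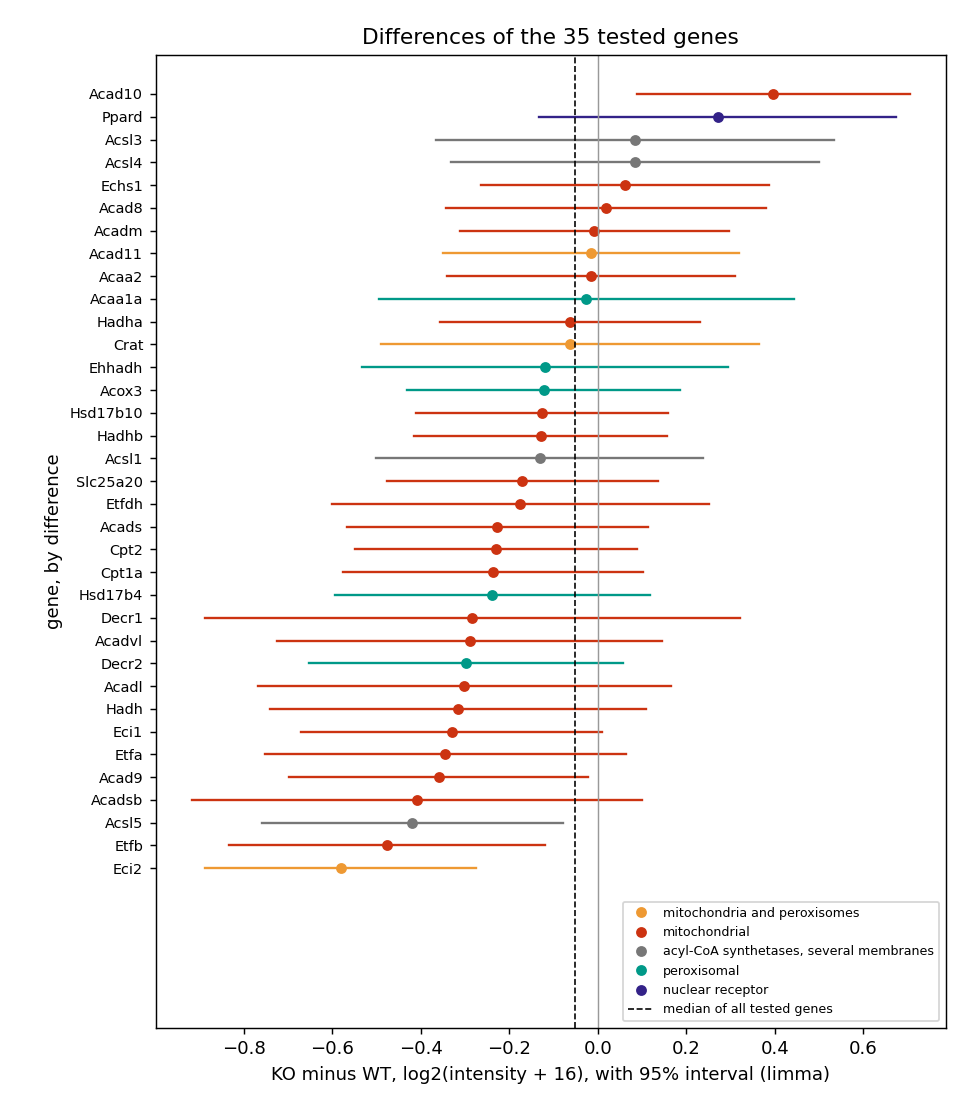
KO minus WT difference of the 35 tested genes on the log2(intensity + 16) scale, with 95% limma intervals, ordered by difference and coloured by compartment; the dashed line is the median of all tested genes, -0.052. Eci2 is lowest at -0.58 and Acad10 highest at 0.40, and the peroxisomal genes lie among the mitochondrial ones.

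Set against each other, the median differences of mitochondrial and peroxisomal enzymes were -0.11 apart. An SD of 0.11 between replicates belongs to another measure, the gap between both compartment medians on each array. It is thus not the error of the -0.11. The 22 mitochondrial genes had a median difference of -0.23, with 19 negative and 3 positive, and the 5 peroxisomal genes (Decr2, Acaa1a, Acox3, Ehhadh and Hsd17b4) had a median of -0.12, with 5 negative. Without KO replicate 1 the medians were -0.11 and -0.11. Without WT replicate 1 they were -0.24 and -0.30, and with bright probe sets -0.23 and -0.28. The last peroxisomal value covers 4 genes, since Ehhadh was not among the genes tested with that setting. Acaa1a moved to -0.47 there, the difference of the only 1 of its 4 probe sets that was lower in KO. The 3 genes found in both compartments (Eci2, Acad11 and Crat) were left out of this comparison. No test was made of it, since the genes were chosen with results known.

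The medians also differed between arrays of a group. As a deviation from each gene's mean over the 6 arrays, the mitochondrial median was 0.053, 0.10 and 0.062 in WT and -0.20, 0.038 and -0.079 in KO. The peroxisomal median was -0.10, 0.17 and 0.21 in WT and -0.22, 0.038 and -0.13 in KO. That of all tested genes was -0.012, 0.056 and 0.057 in WT and -0.091, 0.028 and 0.013 in KO. Every KO array lay below every WT array for the mitochondrial genes, by a small margin between KO replicate 2 and WT replicate 1, while the peroxisomal medians overlapped. The mitochondrial median lay above the peroxisomal one on every KO array, barely in KO replicate 2. In WT it did so only on replicate 1, so the per-array gap did not repeat the direction of the -0.11. After the median of all tested genes was subtracted, the mitochondrial values were 0.065, 0.047 and 0.0054 in WT and -0.11, 0.010 and -0.092 in KO, so that KO replicate 2 lay above WT replicate 3 and the groups overlapped. KO replicate 1 held the lowest of the 6 values in 18 of the 35 genes, 51.4%, beside 38.2% of all tested genes, and KO replicate 2 was close to WT in both compartments.

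**Figure D3:**
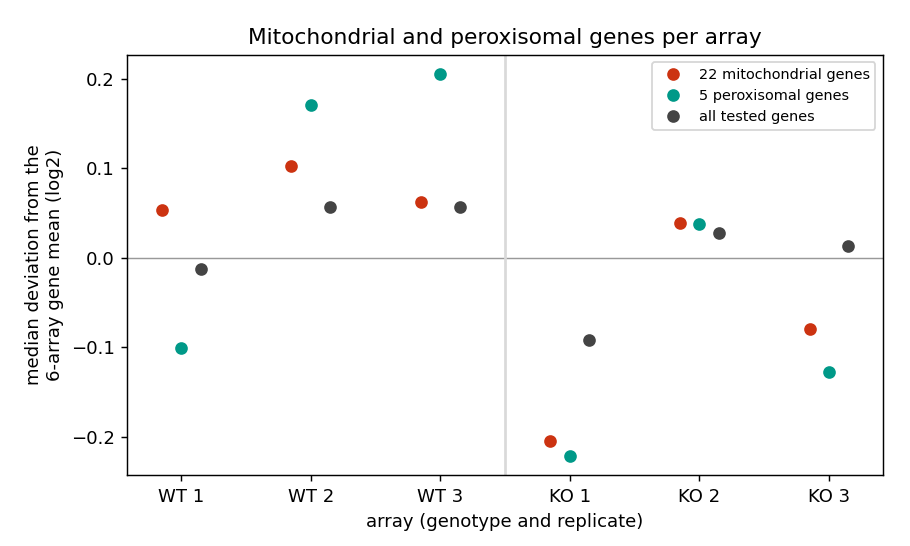
Median deviation from each gene's mean over the 6 arrays (vertical axis, log2 units) for 22 mitochondrial genes, 5 peroxisomal genes and all tested genes on each array (horizontal axis). KO replicate 1 is lowest for both compartments, at -0.20 and -0.22, and KO replicate 2 lies at 0.038 in both.

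Of the nuclear receptors that switch on lipid oxidation genes, Ppard was higher in KO without passing the threshold. It was at 8.66, 8.68 and 8.08 in WT and 8.69, 8.71 and 8.84 in KO. All KO values lay above all WT values, but KO replicate 1 and WT replicate 2 nearly coincided, and the difference of 0.27 (SE 0.18, interval -0.13 to 0.67, adjusted p = 0.636 in limma) was 0.074 without WT replicate 3. Ppara, the receptor of liver and heart, was below the filter floor on every array, at 4.95, 4.73 and 5.24 in WT and 4.82, 4.65 and 5.12 in KO, and was not tested.

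Probe sets within a gene showed how far these gene values rest on single exons. The 37 genes had 538 probe sets with a single symbol, from 4 to 34 per gene. Of these 364 (67.7%) were lower in KO, beside 53% of all 269751 probe sets. All KO values lay below all WT values in 77 (14.3%, beside 7.64%) and above in 14 (2.60%, beside 6.17%). In limma over all probe sets 0 of the 538 passed an adjusted p of 0.05 (0.00111% of all did), and 50 had an unadjusted p under 0.05, 9.29% beside 7.59% (4.37% of all probe sets were lower by this measure). The shares of all probe sets include 30892 without a symbol and those of genes below the filter. They are thus an unlike background, since 35 of the 37 genes lay above the filter. Probe sets of a gene share the same RNA and are not replicates. Acsl5 had 21 of 22 probe sets lower in KO, Cpt1a 16 of 19, Hadha 17 of 20 and Etfb 7 of 8, whereas Acadm had 7 of 14.

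**Figure D4:**
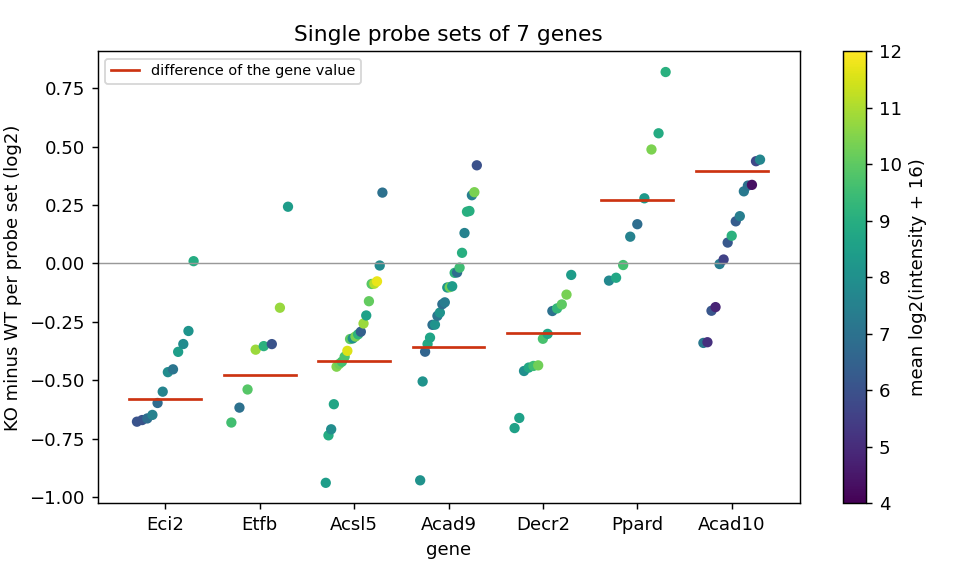
KO minus WT difference of single probe sets (points, coloured by mean level) for 7 genes, with the difference of the gene value as a red line; Decr2 and Ppard were added after their values were seen. All Decr2 points and 11 of 12 Eci2 points lie below 0, while Acad10 points run from -0.34 to 0.44, with its gene value of 0.40 near their upper end.

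Other genes of lipid uptake, peroxisomal transport, ketone use and control were taken as a list of 64, of which 59 were on the array and 46 tested. None passed the threshold in limma, while 4 lower and 1 higher gene had an unadjusted p under 0.05, 10.9% beside 10.7% of all tested genes. In all 32 were lower and 14 higher in KO, with a median of -0.10 (-0.0022 after centring, -0.026 without KO replicate 1 and -0.042 without WT replicate 3). The share at an unadjusted p under 0.05 is near the background, and the 3 genes with the smallest p, Fabp5, Acss2 and Pparg, are given as values.

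Fabp5, the lipid-binding protein of T cells and skin, was at 6.96, 7.14 and 6.97 in WT and 6.37, 6.61 and 6.67 in KO (-0.48, SE 0.14, adjusted p = 0.281). Acss2, which makes acetyl-CoA from acetate in cytosol and nucleus, was higher, at 8.25, 8.30 and 7.99 in WT and 8.58, 8.57 and 8.82 in KO (0.47, SE 0.15, adjusted p = 0.296). Pparg, the lipid-sensing receptor of fat cells and visceral fat Tregs, was at 6.48, 7.24 and 7.02 in WT and 6.39, 6.29 and 6.24 in KO (-0.61, SE 0.19, adjusted p = 0.301). In none of the 3 did the groups overlap, with Pparg of WT replicate 1 closest to KO. They were picked for their small p, so this lack of overlap largely follows from the choice and is not a separate result. Of the 46 tested genes of this list, all KO values lay below all WT values in 6 and above in 2. The shares of all tested genes were 11.3% and 6.1%. The genes of this list that lay below the filter included Cpt1b, Cd36, Fabp4 and Ppargc1a.

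Among markers of dividing cells and of other cell types, 4 single genes passed the threshold in limma, all lower in KO: H2-Aa and H2-Ab1, which encode MHC class II chains, Vcam1, an adhesion molecule, and Gzmk, a granzyme. None of the 5 proliferation genes on the array passed the threshold in limma. All had a negative difference and 4 an unadjusted p under 0.05 (80%, beside 7.67% of all tested genes lower by this measure). Their median difference was -0.88, -0.78 after centring and -0.64 without KO replicate 1. The summed intensity was 1465 to 1732 in WT and 666 to 1200 in KO, lowest in KO replicate 1. Summed B cell markers ranged from 5567 to 5912 in WT and from 3612 to 4401 in KO. The brightest of that list was Cd74, the MHC class II invariant chain (11.62 in WT and 10.95 in KO on average), which like the class II chains is also expressed by other antigen-presenting cells. The B cell receptor genes Cd79a (-0.23) and Cd79b (-0.17), Cd22 (-0.030) and Bank1 (-0.21) overlapped between the groups, and Faim3 was above WT on all KO arrays (0.79, adjusted p = 0.128 in limma). Macrophage and monocyte markers ranged from 716 to 1105 and from 555 to 698, with Emr1, Lyz2 and Mertk below the filter. NK and cytotoxic markers ranged from 2274 to 2908 and from 1521 to 1981, and plasma cell markers from 2592 to 3555 and from 2228 to 2749. The brightest of the plasma cell list were Xbp1, Irf4 and Prdm1 (10.73, 9.60 and 9.07 in WT on average). They differed by -0.20, -0.41 and -0.92, with Irf4 below WT on all KO arrays and the other groups overlapping. Igj and Sdc1 were dimmer, at 7.25 and 6.03 in WT, and differed by -0.85 and 0.063. The 4 genes that passed were 2 of 8 tested B cell markers, 1 of 6 macrophage markers and 1 of 7 NK markers, and Blk and Gzma lay below the filter. Over all tested genes 0.266% passed and were lower in KO. Of the other NK markers, Ncr1 (-0.85, adjusted p = 0.212 in limma) and Nkg7 (-0.57, adjusted p = 0.362 in limma) were below WT on all KO arrays. Klrb1c was above WT on all KO arrays (0.28, adjusted p = 0.552 in limma), while Gzmb (-0.45), Prf1 (-0.0067) and Eomes (0.028) overlapped between the groups. Neutrophil (274 to 297 and 270 to 317), dendritic cell (212 to 252 and 163 to 227) and erythroid and platelet markers (150 to 203 and 112 to 177) overlapped between the groups and were dim, with S100a8, S100a9, Flt3, Itgax and Pf4 below the filter. The Treg markers, in comparison, ranged from 31946 to 32281 in WT and from 29940 to 31264 in KO, without overlap. Ikzf2 (-0.20) and Cd3e (-0.19) were below WT on all KO arrays and Foxp3 above (0.064), none past the threshold. Of the 7 Treg markers 6 had a negative difference, and 3 after centring. The part of these markers in the differences of the fatty acid oxidation genes was not tested, and in a sorted bulk population fewer cells of a type and less RNA per cell cannot be told apart.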

How the data were processed

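RNA of 6 mice (3 KO, 3 WT) was hybridised to 1 array each. Per the labels and the submitters' processing notes, the deposited values are intensities per exon-level probe set, summarised by the authors with PLIER in Affymetrix Expression Console 1.4; the sources used here do not name the background correction, normalization or genome build. Of 269751 probe sets 233753 had 1 symbol in the platform annotation, 5106 had several (7 of them naming a gene of the set, not used) and 30892 had none.

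Intensities were transformed as log2(intensity + 16), and probe sets of a gene were combined by their median. Genes with a mean under the 40th percentile (5.90) were left out, 9261 of 23152. Tests were two-sided and used lmFit and eBayes of limma 3.58.1 under R 4.3.3, with Benjamini-Hochberg adjustment over all tested genes; intervals are 95% from the same fit. All adjusted p-values are limma's. The test was checked on simulated data. Groups came from the sample titles, and each sample is a separate mouse. An exact permutation test of 3 against 3 cannot go below 0.10.

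The genes, lists, compartments and tests were chosen with earlier results of these data known. The naming rule gave all genes of the set, array values for those at an unadjusted p under 0.05, without overlap or leading their role (others were added), and the 3 related genes with the smallest p. Alternatives were pseudocounts of 1 and 64, other filters, mean or bright probe sets, quantile normalization, median centring, other variance models, the replicate number as a block and each array left out.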

Additional observations from a re-analysis of the deposited data

How the results depend on the processing

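No gene of the set passed an adjusted p of 0.05 in limma under any alternative run. Of 625 alternative values of single genes, 172 came from settings that alter the test or the genes tested but not the difference itself. Of the other 453 values, 409 kept their direction and their side of the threshold and 44 reversed, in 13 genes, while 22 genes kept their sign throughout. The count of all genes past the threshold, 38, was 60 with the mean of probe sets, 125 with array weights and 0 with the unmoderated test, where Park7 kept its difference of -3.57 at an adjusted p of 0.0905. It ran from 4 (WT replicate 1 or 2 left out) to 37 when an array was left out. The count of the set at an unadjusted p under 0.05, 5, was 3 after median centring and from 2 to 8 when an array was left out. No share of all tested genes under these settings stands beside it. The set's median of -0.17 was -0.068 after median centring. The mitochondrial minus peroxisomal median of -0.11 was 0.049 with bright probe sets (4 peroxisomal genes) and ran from -0.13 to 0.058 when an array was left out. Reversed with array weights was Acaa2 0.0031. Reversed with bright probe sets were Acsl4 -0.061, Acad11 0.12, Hsd17b10 0.015. Reversed with the mean of probe sets were Acsl4 -0.032, Acadm 0.0095, Acad8 -0.058, Echs1 -0.024, Acaa1a 0.11, Ehhadh 0.078. Reversed after median centring were Crat 0.040, Acadm 0.094, Acad11 0.087, Hadha 0.040, Acaa2 0.086, Acaa1a 0.077. Reversed with a pseudocount of 1 was Acaa1a 0.0023. Reversed with quantile normalization were Acadm 0.046, Acad11 0.034, Acaa2 0.033, Acaa1a 0.021. Values that turned sign when an array was left out were Acaa1a from -0.14 to 0.18, Acaa2 from -0.076 to 0.081, Acad11 from -0.076 to 0.11, Acad8 from -0.077 to 0.14, Acadm from -0.074 to 0.047, Acsl3 from -0.14 to 0.23, Acsl4 from -0.042 to 0.24, Crat from -0.26 to 0.053, Decr1 from -0.50 to 0.074, Echs1 from -0.035 to 0.15, Ehhadh from -0.30 to 0.032. The cause of these shifts was not tested.

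With the replicate number as a replicate block, 67 genes passed the threshold, none of them in the set. The numbers were not taken as pairing the mice: deviations from the group means correlated by 0.15, 0.17 and 0.010 for numbers 1, 2 and 3, and the labels do not link them.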
